A study of Pimephales promelas with 27 samples.

Results

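The 60 probes described here were higher in fathead minnow larvae exposed to pure naphthenic acids than in larvae of the matching salt control, and were not higher by more than a small margin in larvae exposed to fresh or aged oil sands process water. They were selected on measured values from the 15208 probes of the array, with all 6 differences between a dose and its salt control in use. A probe was eligible if its spot was well above background on all 9 arrays of the pure acid groups, which left 10478 probes. Its group mean at 1.25 ppm had to exceed that of the pure salt control, and each of its 4 differences between a fresh or aged dose and the salt control of the same water had to be below 0.3 on the log2 scale. Of the 1697 probes that met every criterion, the 60 with the largest difference between pure 2.5 ppm and pure salt were kept, and they are called here by their rank in that difference. The differences that chose the probes are therefore given as a description of the set and not as a test of it.

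The study measured total RNA of newly hatched Pimephales promelas, a minnow that is widely kept for toxicity tests, on 27 Agilent arrays with a single dye, Cy3. Embryos were exposed until hatch to a source of naphthenic acids, with 3 arrays in each of 9 groups. The pure naphthenic acid groups were a salt control (replicates 7 to 9), 1.25 ppm (replicates 1 to 3) and 2.5 ppm (replicates 4 to 6). The fresh oil sands groups were a salt control, 5 ppm and 10 ppm, and the aged oil sands groups were a salt control, 10 ppm and 20 ppm. No strain, age in hours or genotype is given, and the labels name no clean water group. The labels do not say whether ppm of a process water counts its naphthenic acids or another part of it, so doses were not matched between sources. Separate tanks or spawns are not stated for the samples of a group, so a p-value reflects the spread among these arrays, part of which may be technical.

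Naphthenic acids are carboxylic acids, many of them with saturated rings, that occur in crude oil and bitumen. Water used to extract bitumen from oil sand takes them up together with salts and other organic compounds, and the mixture changes while it is stored in tailings ponds. The acids are regarded as a main source of the toxicity of such water to fish, which is why a purified preparation is of interest beside the water itself. In RNA of larvae, fewer cells of a type and less RNA per cell cannot be told apart.

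A value below is a level, meaning the log2 processed signal of a spot minus the log2 of the 75th percentile of its array, or a difference of such levels. A level of 0 lies at that percentile, and a difference of 1 is a 2-fold change. Levels of different probes were not ranked against each other as amounts of RNA. The 75th percentile ran from 582.4 to 2044.2 between arrays, and 10930 to 14981 probes were well above background on an array. A group of 5 arrays stood apart, namely fresh 10 ppm replicate 1, aged salt replicates 7 and 9 and aged 20 ppm replicates 4 and 6. The rank correlation between their scanner signal and the authors' values of the same array was 0.871 to 0.982, against 0.9996 to 0.9997 for the other 22 arrays. None of the 5 was an array of the pure acid series, but they enter the limit that the fresh and aged differences had to meet. The files pair probes with contig names or sequence numbers and not with genes. Of the 60 probes 49 carried a contig name and 11 a sequence number, and 0 matched a gene of the reference table. No gene, pathway or tissue marker is therefore named, and the label of newly hatched larvae could not be checked against markers.

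At pure 2.5 ppm the median difference of the 60 probes from pure salt was 0.64, a median fold of 1.56, while the median over all 14738 tested probes was -0.12. The differences ran from 0.51 to 2.53. Only 7 of the 60 reached a 2-fold difference, and the other 53 lay between 0.5 and 1. The set thus held a few large differences and many of about 1.5-fold. At 1.25 ppm the median difference was 0.37, a median fold of 1.29, with a range from 0.01 to 1.01 and a median of -0.03 over all tested probes. In the median probe the difference at 1.25 ppm was 55.0% of that at 2.5 ppm. The 2.5 ppm mean was above the 1.25 ppm mean in 54 of the 60 probes (37.8% of all tested probes), and the other 6 had the larger difference at the lower dose.

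In larvae exposed to process water the median of the same probes lay close to 0, but single probes were well below their controls. Differences under -0.5 were held by 10, 5, 9 and 6 of the 60 probes at fresh 5, fresh 10, aged 10 and aged 20 ppm. The share of all tested probes under that value was not counted, so no excess or lack of low probes is read from these counts. The median difference was -0.06 at fresh 5 ppm, where 27 of 60 probes were above 0. It was 0.02 at fresh 10 ppm with 32 above 0, 0.02 at aged 10 ppm with 32 above 0, and 0.07 at aged 20 ppm with 34 above 0. Over all tested probes the medians of these comparisons were -0.03, 0.27, -0.31 and -0.15. The sign of the set's median depended on the scaling, since with quantile normalization it was -0.29 at fresh 10 ppm, and with the authors' values it was -0.11 at aged 20 ppm. The limit set the upper end of each range, while the lower end was free. It reached -1.83 at fresh 5 ppm and -2.61 at aged 10 ppm, both in the rank 8 probe. Both salt controls of that probe held a spot flagged as not uniform. These were fresh salt replicate 9, at 1.88 beside -4.29 and -5.02, and aged salt replicate 7, at -1.37. The 2 lowest values therefore rest in part on flagged control spots. Of the 60 probes 11 were below their control in all 4 process water comparisons, 14 were above it in all 4 by less than the limit, and 35 had both signs. The shares of all tested probes with these sign patterns were not counted either, so these counts only describe the set.

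The limit removed most of the probes that were as high at pure 2.5 ppm. There were 697 eligible probes with a 1.25 ppm difference above 0 and a 2.5 ppm difference at least as large as that of the last member, and 637 of them had a fresh or aged difference of 0.3 or more. In 224 of those all 4 fresh and aged differences reached the limit. The boundary was not a gap in the data. The highest fresh or aged difference of a member was 0.2961, the lowest among the probes it removed was 0.3026, and 47 removed probes had their largest such difference between 0.3 and 0.4. Among the members, 25 had their largest fresh or aged difference between 0.2 and 0.3. At the other boundary, the rank 60 probe had a pure 2.5 ppm difference of 0.51, and the probes at ranks 61 and 62, which met every criterion but were not kept, had 0.51 and 0.50.

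The processing and the arrays that stood apart decided much of the membership. Applied to quantile normalized values or to the authors' values, the rule took 28 of the same 60 probes. After normexp background correction it took 23 with quantile normalization and 9 with the 75th percentile. Without those 5 arrays 35 of the 60 probes kept all 4 fresh and aged differences below 0.3. The fresh 5 ppm comparison holds none of those arrays, so its count of 0 could not change. At fresh 10 ppm 7 of the 60 probes then reached the limit, and at aged 10 ppm 9 did. In the aged 20 ppm comparison, where 1 array was left in either group, 17 reached it. The highest difference without them was 1.77, at aged 20 ppm.

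The probe with the largest difference, UF_Ppr_AF_110811, had levels of -1.92, -1.64 and -1.46 on the 3 pure salt arrays. At 1.25 ppm they were 0.16, -1.43 and -1.19, and at 2.5 ppm 1.08, 0.98 and 0.53. The 3 pure groups did not overlap, although replicate 1 of the 1.25 ppm group lay far above the other two of its group. Its means were -1.67 ± 0.23 in salt, -0.82 ± 0.86 at 1.25 ppm and 0.86 ± 0.29 at 2.5 ppm (SD, n = 3 each), and the difference of 2.53 was a 5.79-fold change. The fresh salt mean of the same probe was 0.02 ± 0.84 and the aged salt mean -0.36 ± 0.26 (SD, n = 3 each). Both other salt controls were thus above every pure salt array, and on all 18 fresh and aged arrays this probe was above its 3 pure salt values. The fresh 5 and 10 ppm differences of this probe were -0.83 and -0.50, and the aged 10 and 20 ppm differences were -0.48 and -0.10.

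The second probe, UF_Ppr_AF_110670, had levels of -3.15, -2.56 and -1.95 in pure salt, -1.82, -2.43 and -2.31 at 1.25 ppm, and -1.57, -1.16 and 0.03 at 2.5 ppm. Its 1.25 ppm arrays lay within or just above the salt range and its 2.5 ppm arrays all lay above both. The difference at 2.5 ppm was 1.65, a 3.15-fold change, and without replicate 6 of that dose it was 1.19. Its mean at 2.5 ppm was -0.90 ± 0.84, beside -1.10 ± 0.18 in fresh salt and -1.12 ± 0.24 at fresh 10 ppm (SD, n = 3 each), so the exposed level lay within its own SD of the fresh salt level. In the aged series this probe was lower at both doses than in salt, with differences of -0.78 at 10 ppm and -1.17 at 20 ppm.

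The rank 3 probe differed from pure salt mainly on a pair of arrays. Its levels were -2.32, -2.96 and -2.21 in salt, -1.83, -2.52 and -1.95 at 1.25 ppm, and -0.58, -0.29 and -2.07 at 2.5 ppm. Replicate 6 of the higher dose lay within the 1.25 ppm values, while replicates 4 and 5 were well above them. In this probe the 6 fresh and aged group means were alike, from -2.55 to -2.28, and close to the pure salt mean of -2.49. The difference at 2.5 ppm was 1.51.

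The rank 4 probe had levels of -3.23, -2.93 and -2.19 in pure salt, -2.09, -2.60 and -2.09 at 1.25 ppm, and -1.54, -1.26 and -1.81 at 2.5 ppm. The rank 5 probe had -2.30, -2.34 and -1.58 in salt, -1.40, -2.14 and -1.75 at 1.25 ppm, and -0.92, -0.77 and -1.04 at 2.5 ppm. In both probes the 2.5 ppm arrays lay above all salt and 1.25 ppm arrays, and salt replicate 9 was the highest of the controls. Their differences were 1.25 and 1.17, and leaving out any 1 of the 6 arrays compared left at least 1.02 and 1.03.

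The rank 6 and rank 7 probes already differed from salt at the lower dose. Rank 6 had levels of 0.39, 0.92 and 1.1 in salt, 2.12, 1.25 and 1.42 at 1.25 ppm, and 1.85, 2.44 and 1.60 at 2.5 ppm. Rank 7 had -0.40, -0.47 and -0.47 in salt, 0.49, 0.61 and 0.25 at 1.25 ppm, and 0.65, 0.64 and 0.39 at 2.5 ppm. In both, each dosed array was above each salt array, and the dose groups overlapped each other. For rank 7 the differences were 0.90 and 1.01, with SDs of 0.04 in salt, 0.18 at 1.25 ppm and 0.15 at 2.5 ppm (n = 3 each), so that both differences were several times the SDs. Its fresh and aged group means, between 0.01 and 0.29, lay between the pure salt mean of -0.45 and the pure 2.5 ppm mean of 0.56.

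The rank 8 and rank 9 probes rested on few spots. Rank 8 was the member with the lowest pure salt mean, -4.57. Its levels at 2.5 ppm were -2.55, -2.66 and -5.76 around salt values of -4.31, -4.80 and -4.59. Its 1.25 ppm levels were -4.97, -4.68 and -3.26. Replicate 6 of the higher dose was below every salt array, and the groups overlapped. Its spots on 3 arrays were flagged as not uniform by the scanner software, namely pure 2.5 ppm replicate 4, aged salt replicate 7 and fresh salt replicate 9, where its level was 1.88. Rank 9 had levels of 0.45, 0.37 and 0.36 in salt, 0.24, 0.46 and 0.53 at 1.25 ppm, and 3.47, 0.02 and 0.40 at 2.5 ppm. Replicate 4 alone was high, that spot was also flagged as not uniform, and without it the 2.5 ppm difference was -0.18 in place of 0.91. These were the only member spots with that flag, 4 of 1620, and 0 member spots were saturated.

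The rank 10 probe rose in steps, with levels of -1.34, -1.35 and -1.29 in salt, -1.06, -0.90 and -0.89 at 1.25 ppm, and -0.07, -0.59 and -0.61 at 2.5 ppm. All 3 groups were apart. Such a complete order, with every 1.25 ppm array above every salt array and every 2.5 ppm array above both, held for 5 of the 60 probes (1.23% of all tested probes), at ranks 1, 10, 13, 25 and 36. The differences of rank 10 were 0.37 and 0.90, and the SDs were 0.03, 0.10 and 0.30 in salt and at the lower and higher dose (n = 3 each).

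Further members show the spread of patterns in the set. The brightest, rank 21, had levels of 3.82, 3.16 and 3.41 in pure salt, 3.77, 4.03 and 3.87 at 1.25 ppm, and 4.38, 3.90 and 4.23 at 2.5 ppm, so that only the higher dose was clear of all salt arrays. The probe with the smallest difference at 1.25 ppm, rank 15, had -1.33, -0.71 and -0.23 in salt, -0.38, -1.08 and -0.79 at 1.25 ppm, and -0.03, 0.06 and 0.07 at 2.5 ppm. Its lower dose coincided with the control, and its higher dose was above both with an SD of 0.05 (n = 3). The probe with the largest difference at 1.25 ppm, rank 17, had -5.31, -4.13 and -3.50 in salt, -3.46, -3.33 and -3.11 at 1.25 ppm, and -3.59, -3.50 and -3.59 at 2.5 ppm. In that dim probe every 1.25 ppm array was above every 2.5 ppm array, both doses lay near salt replicate 9, and most of the difference came from the other salt arrays.

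At the edge of the set, rank 60 had levels of -0.88, -1.02 and -0.81 in salt, -0.60, -0.67 and -0.87 at 1.25 ppm, and -0.29, -0.39 and -0.49 at 2.5 ppm. Just outside it, rank 61 had 1.93, 2.10 and 2.52 in salt, 2.51, 2.24 and 2.19 at 1.25 ppm, and 2.79, 2.57 and 2.71 at 2.5 ppm, and rank 62 had 1.24, 1.31 and 1.16, then 1.56, 1.48 and 1.31, then 1.87, 1.74 and 1.58. The 2.5 ppm arrays were above all salt arrays in each of these 3 probes, so the last place of the set does not mark a change in the pattern.

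In most of the set all 3 arrays at 2.5 ppm were above the pure salt arrays. The rule chose the probes on these arrays, so the counts that follow are descriptions only. All 2.5 ppm arrays were above all pure salt arrays in 41 of the 60 probes (8.15% of all tested probes and 13.3% of the 1697 that met every criterion). All 1.25 ppm arrays were above all pure salt arrays in 18 (7.31% of all tested probes), and all 2.5 ppm arrays were above all 1.25 ppm arrays in 15 (4.14% of all tested probes). In 10 probes, at ranks 8, 9, 17, 18, 24, 34, 45, 48, 56 and 57, leaving out 1 of the 6 arrays compared took away most of the 2.5 ppm difference. In rank 56 that array was salt replicate 7, at -1.56 beside 0.48 and 0.28 for the other salt arrays, while the 2.5 ppm arrays were at 0.22, 0.32 and 0.27. The lowest salt level was on replicate 7 in 18 probes, replicate 8 in 25 and replicate 9 in 17. The highest 2.5 ppm level was on replicate 4 in 30 probes, replicate 5 in 17 and replicate 6 in 13. Shares of all tested probes were not counted for these places or for the 10 probes above, so nothing is read from them.

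In limma's fit over all 27 arrays, 12 of the 60 probes passed a Benjamini-Hochberg adjusted p of 0.05 at pure 2.5 ppm, beside 1.4% of all tested probes called as rises. They were ranks 1, 2, 4, 6, 7, 10, 13, 19, 25, 26, 27 and 36, with differences from 0.61 to 2.53. Ranks 3, 5, 8 and 9 did not pass despite larger differences than most of these. Their standard errors were 0.46, 0.38, 1.44 and 0.53, against a median of 0.27 over the set. At an unadjusted p below 0.05 there were 37 (4.81% of all tested probes). At 1.25 ppm 0 of the 60 passed the adjusted threshold (0.17% of all tested probes), and 14 passed the unadjusted one (3.06% of all tested probes). These counts come from the comparisons that chose the probes and are descriptions only. With other scalings or background corrections 2 to 7 of the 60 passed at 2.5 ppm in place of 12, with the 9 pure arrays alone 4 passed, and without the 5 arrays that stood apart 14 passed. In the process water comparisons the rule held rises down, and limma called 0 members as higher in the fresh comparisons at 5 ppm (0.0746% of all tested probes) or 10 ppm (0.231%). It called 0 in the aged comparisons too, where 10 ppm had 0.115% and 20 ppm 0.271% of all tested probes called. At an unadjusted p below 0.05 the rises were 0, 0, 2 and 1 members (3.92%, 9.07%, 5.64% and 5.39% of all tested probes). Falls were free of the limit. In the same order limma called 0 members as lower in each (0%, 0.102%, 0.0136% and 0.00679% of all tested probes), and 3 members in each were lower at an unadjusted p below 0.05 (3.92%, 6.44%, 18.8% and 2.28%).

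Whether the pure response exceeded the process water responses is a question about the difference between the responses, which the rule also shaped. The pure 2.5 ppm difference minus the fresh 5 ppm difference had a median of 0.74 over the 60 probes, with a range from 0.32 to 3.37 and a median standard error of 0.37. The medians against fresh 10 ppm, aged 10 ppm and aged 20 ppm were 0.61, 0.66 and 0.66, and over all tested probes the 4 medians were -0.08, -0.34, 0.16 and -0.02. In limma 0 of the 60 probes passed an adjusted p of 0.05 for any of the 4, where the shares of all tested probes called as higher were 0.00679%, 0%, 0% and 0%. The lowest limma adjusted p among the members was 0.0623 against fresh 5 ppm, 0.241 against fresh 10 ppm and 0.189 against aged 10 ppm, each at rank 1, and 0.11 against aged 20 ppm, at rank 2. At an unadjusted p below 0.05 the counts were 27, 21, 24 and 23 (1.89%, 1.49%, 2.88% and 1.19% of all tested probes). With 3 arrays a group, a response confined to the pure acids was therefore not shown in this fit for any single probe of the set.

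The levels behind the differences are described next for each group. The rule used these levels through the differences, so they are no test of the salt controls. Relative to its own pure salt mean, the median probe of the set was at 0.37 at pure 1.25 ppm and 0.64 at pure 2.5 ppm. It was at 0.47 in fresh salt, 0.42 at fresh 5 ppm and 0.47 at fresh 10 ppm, and at 0.34 in aged salt, 0.26 at aged 10 ppm and 0.34 at aged 20 ppm. Among all eligible probes the same medians lay between -0.07 and 0.09 in every group. In larvae labelled as fresh and aged salt controls the set's median thus lay between its values in pure salt and pure 2.5 ppm larvae. Single probes did not all follow the median. Array by array the set's median was 0.07, -0.04 and 0.05 in pure salt, 0.49, 0.32 and 0.28 at 1.25 ppm, and 0.73, 0.63 and 0.67 at 2.5 ppm. It was 0.55, 0.36 and 0.55 in fresh salt and 0.31, 0.28 and 0.37 in aged salt. No fresh or aged array had a median as low as a pure salt array or as high as a pure 2.5 ppm array, the extremes being 0.17 and 0.55.

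The pure salt mean was below both the fresh salt mean and the aged salt mean in 49 of the 60 probes (31.1% of all tested probes and 48.3% of those that met every criterion). It was below all 6 fresh and aged group means in 37 (15% of all tested probes and 26.3% of those that met every criterion). The pure 2.5 ppm mean was above all 6 in 35 (8.6% of all tested probes and 15.6% of those that met every criterion). Choosing probes for a large difference from pure salt favours probes whose pure salt arrays happen to be low as well as probes whose exposed arrays are high. The limit on the fresh and aged differences likewise favours probes whose fresh and aged salt arrays happen to be high. These counts and the levels above are therefore descriptions too. Without the 5 arrays that stood apart, the counts were 32 (13.7% of all tested probes) and 30 (8.52%). In 20 probes both held, in 15 only the high exposed level, in 17 only the low control level, and in 8 neither.

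In some probes either the high exposed level or the low control level held on every array. In 4 probes, at ranks 4, 19, 25 and 27, all 3 pure 2.5 ppm arrays were above all 18 fresh and aged arrays (0.577% of all tested probes). The rank 25 probe was the tightest of them, with levels of 2.40, 2.35 and 2.40 at 2.5 ppm, 1.70, 1.67 and 1.77 in pure salt, and at most 2.19 on any fresh or aged array. In 7 probes, at ranks 1, 7, 10, 11, 26, 28 and 36, all 3 pure salt arrays were below all 18 fresh and aged arrays (0.651% of all tested probes). The rank 28 probe had levels of -3.74, -4.02 and -3.83 in pure salt and -3.25, -3.34 and -3.07 at 2.5 ppm, while its fresh and aged arrays lay between -3.72 and -2.86 and held the pure 2.5 ppm values within their range. Over the 13 fresh and aged arrays that did not stand apart, these counts were 5 (0.882% of all tested probes) and 9 (1.49%).

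Each slide held arrays of several groups, and slide and pure group were only partly separate. Pure salt was on slides 2 and 3, 1.25 ppm on slides 1, 2 and 4, and 2.5 ppm on slides 1, 3 and 4. Within slide 3 the set's median of 2.5 ppm replicate 4 minus the mean of salt replicates 8 and 9 was 0.74, with 57 of 60 probes above 0 (48.8% of all tested probes). Within slide 2 the median of 1.25 ppm replicate 3 minus salt replicate 7 was 0.29, with 47 above 0 (40.3%). The step between doses had a median of 0.28 with 47 above 0 (41.6%) within slide 1, where replicate 6 was set against replicate 2. Within slide 4, where replicate 5 was set against replicate 1, the median was 0.09 with 38 above 0 (47.8%). These values use the arrays that chose the probes.

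Probes outside the set that carried the same name as a member were not chosen by the rule and could be tested. The contig or sequence name of 4 members, at ranks 8, 37, 50 and 54, was shared by another probe of the array. At pure 2.5 ppm 0 of these 4 partners were above pure salt, and at 1.25 ppm 3 were, with differences of 0.27, 1.20 and 0.45 for the partners of ranks 8, 50 and 54 and -0.36 for that of rank 37. The partner of rank 8 was well above background on all 9 pure arrays and had a difference of -0.25 ± 0.41 (SE), with a limma adjusted p of 0.954 over all tested probes. The partners of ranks 50 and 54 differed by -0.19 ± 1.05 and -0.43 ± 0.89 (SE), with limma adjusted p of 0.996 and 0.979, but they were well above background on only 3 and 1 of the pure arrays. The partner of rank 37 was well above background on 0 pure arrays and was not tested. Its difference was -0.30. The intervals of the dim partners are wide, so they hold little information about the members beside them.

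A looser link was the first number of the contig name, whose meaning the files do not state. It was shared by 19 other probes with 11 members, and 17 of these were tested. At pure 2.5 ppm 8 of the 17 were above 0, with a median of -0.07, beside 36.9% above 0 among all tested probes. In limma 1 of the 17 rose, a probe that shares its number with rank 32, by 1.97 ± 0.28 (SE) with an adjusted p of 0.000349. That probe also had differences of 1.08, 1.06, 1.13 and 1.12 at fresh 5, fresh 10, aged 10 and aged 20 ppm, unlike rank 32 itself, which had 0.63 at pure 2.5 ppm and -0.22, 0.06, -0.49 and 0.17 in the process waters. No member shared a contig or sequence number with another member, so the 60 probes stood for 60 separate names.

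Beyond the pattern that chose them, the probes were spread widely in level and position on the array. Shared genes or functions could not be examined. Their pure salt levels ran from -4.57 to 3.46, with a median of -1.38 beside -0.97 for the eligible probes. Ranked by the mean level over all 9 pure arrays, which holds the raised doses, their median was at the 50.7th percentile of the eligible probes. On all 27 arrays 55 of them were well above background, beside 96.5% of the eligible probes. Their spots were spread over the array, with 11, 14, 18 and 17 probes in 4 equal areas of it. The median SD within a group was 0.26 in pure salt, 0.26 at 1.25 ppm and 0.25 at 2.5 ppm, above the 0.20, 0.19 and 0.21 of the eligible probes. Once group means were removed, the 1770 pairs of members had a median correlation of 0.06 over the 27 arrays, with 90% of pairs between -0.40 and 0.52, as a description of points that share arrays. The median pair of members was thus close to uncorrelated from array to array within the groups, and pairs of other eligible probes were not compared.

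Outside the set, the 3 probes most like rank 1 over the 9 pure arrays each had a Pearson correlation of 0.97 with it, and their pure 2.5 ppm differences were 1.51, 0.90 and 1.64. In the process waters their differences lay between -0.14 and 0.80, with at least 1 of the 4 above the limit of 0.3 in each, which kept them out of the set. The 3 probes most like rank 2 had correlations of 0.94, 0.90 and 0.90 over the same 9 arrays and smaller pure 2.5 ppm differences of 0.31, 0.33 and 0.68. These correlations follow the groups as much as the single arrays and are given with no test.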

How the data were processed

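Each array file held a processed signal per spot, a linear intensity that the authors' scanner software, Agilent Feature Extraction 10.7.1.1, had written, along with median and local background intensities, per the file headers. Its flags of other kinds are 0 or 1 and mark whether a spot exceeded background clearly, was saturated or was uneven, per the file headers. In addition the authors deposited log2 values of every array in a value table. How those were scaled is not given in the sources used here.

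Control spots were left out. The log2 processed signal minus the log2 of the array's 75th percentile entered a limma 3.58.1 model under R 4.3.3 that gave each of the 9 groups its own mean and left 18 residual degrees of freedom. It covered the 14738 probes well above background on at least 3 arrays. P-values were adjusted by Benjamini-Hochberg over these probes at a threshold of 0.05. The script was tested on simulated data with changes well above the set's median difference. That test therefore does not show how well differences as small as most of these are recovered.

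The members and lists were chosen with earlier results of these data known. Probes given with a value for every pure array were ranks 1 to 10, ranks 60 to 62 and the members with the extreme salt levels and 1.25 ppm differences. Ranks 25, 28 and 56, given in part, were chosen after their values were seen. The planned gene lists and markers could not be applied, because no table pairs probes with genes. Other scalings, background corrections, filters, blocks and left-out arrays were tried.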

Additional observations from a re-analysis of the deposited data

How the results depend on the processing

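All 60 probes stayed above pure salt at 2.5 ppm under each scaling and background correction. With normexp and the 75th percentile the median of all tested probes was above pure salt too, by 0.49. Calls at pure 2.5 ppm moved. The 12 members called there became 5 with quantile normalization, 7 with normexp and quantile normalization, 2 with normexp and the 75th percentile, 6 with the authors' values and 4 with the 9 pure arrays only, where 144, 207, 68, 176 and 163 of all tested probes rose in place of 207. It was 13 (256) among probes well above background on all 27 arrays (55 members) and 14 (301) without the 5 arrays that stood apart. Ranges for a left-out array cover the groups compared. Here it was 6 to 12, with 6 without pure salt replicate 8 and 7 without pure 2.5 ppm replicate 4. At 1.25 ppm 1 member was called in place of 0 with the stricter filter, with slide as a fixed block, without the 5 arrays that stood apart, and without aged salt replicate 9 or aged 10 ppm replicate 1. For the pure 2.5 ppm response minus the fresh 5 ppm one, normexp with quantile normalization called 1 member, the stricter filter called 2 and leaving out an array 0 to 1. Minus aged 20 ppm the stricter filter called 1 and leaving out an array 0 to 2, and minus fresh 10 ppm leaving out an array gave 0 to 1. In these 3 ranges the calls came without pure salt replicate 9. Minus fresh 5 ppm, 2 were called without aged salt replicate 9. At aged 10 ppm leaving out an array gave 0 to 2, both falls without aged salt replicate 8, where 3924 of all 14738 tested probes fell.

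The median difference of 0.64 at pure 2.5 ppm was 0.70, 0.44, 0.73 and 0.69 under quantile normalization, normexp with quantile normalization, normexp with the 75th percentile and the authors' values, and 0.61 to 0.69 with an array left out. At pure 1.25 ppm it was 0.22 with normexp and quantile normalization. Leaving out an array gave 0.30 to 0.43 there and -0.12 to 0.02 at fresh 5 ppm. At fresh 10 ppm the median was -0.29, -0.15 and -0.25 with quantile normalization, normexp with quantile normalization and the authors' values, and -0.02 to 0.06 with an array left out. Quantile normalization moved that of all tested probes from 0.27 to -0.04 there and -0.31 to 0.08 at aged 10 ppm. At aged 10 ppm the median was 0.22 and 0.18 with quantile normalization without and with normexp, and -0.07 to 0.04 with an array left out. At aged 20 ppm leaving out an array gave -0.025 to 0.067, where quantile normalization gave 0.14, normexp with the 75th percentile 0.19 and the authors' values -0.11.

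Applied again, the rule took 28 of the 60 probes with quantile normalization, 23 with normexp and quantile normalization, 9 with normexp and the 75th percentile, 28 with the authors' values and 29 without the 5 arrays that stood apart. Leaving out 1 array gave 29 to 58, with 29 without fresh 10 ppm replicate 1 and 37 without aged salt replicate 9. Normexp with the 75th percentile, leaving out uneven spots and the level counts without the 5 arrays were chosen after seeing the data. The cause was not tested. With the replicate number as a block, 0 members were called for pure 2.5 ppm minus fresh 5 ppm and minus aged 20 ppm, as without it. Deviations of same-numbered arrays correlated at 0.08 to 0.18 between pure 2.5 and fresh 5 ppm and 0.13 to 0.38 between pure and fresh salt, with 3 of 3 closest to their own number. Against aged 20 ppm and aged salt they did so at -0.20 to 0.02 and -0.23 to 0.22, with 1 of 3 closest. Not every pair deviated together, so the numbers were not taken to pair the samples.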
